A study of Mus musculus with 24 samples.

Results

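The receptors that steer B lymphocytes through lymph node and spleen were followed in mature mouse B cells that lacked the Ets transcription factors PU.1 (gene Spi1), SpiB (gene Spib) or both. They were chosen by symbol as 9 of the 27179 genes of the count tables: the chemokine receptors Cxcr5, Cxcr4, Ccr7 and Ccr6, the oxysterol receptor Gpr183 (EBI2), and the sphingosine 1-phosphate (S1P) receptors S1pr1, S1pr2, S1pr3 and S1pr4. All 9 passed the filter on low counts at every stage. RNA was sequenced from B cells of C57BL/6 mice aged 6 to 20 weeks, with 2 biological replicates of 4 genotypes and 3 stages, 24 libraries in all. The stages were naive lymph node B cells, such cells after 48 h with CD40L + IL-4, and such cells after 48 h with LPS + IL-4, all sorted as CD3- B220+ CD138-. Control mice carried the Cd23-Cre transgene alone (Cd23T/+). PU.1 cKO mice were Spi1fl/fl Cd23T/+, SpiB KO mice were Spi1fl/fl Cd23+/+ Spib-/- and so had floxed Spi1 but no Cre, and PU.1 SpiB DKO mice were Spi1fl/fl Cd23T/+ Spib-/-. Cre under the Cd23 regulatory sequences acts from the transitional stage of B cell development onwards, and the study's methods relied on 48 h of culture for complete deletion of Spi1 in DKO cells, so that deletion in naive DKO cells can be partial.

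All 9 receptors are G protein-coupled receptors, and most of them turn a gradient of a ligand into directed movement. Cxcr5 draws B cells into follicles along Cxcl13, Ccr7 pulls them towards the T cell zone, and the oxysterol receptor Gpr183 holds activated cells at the follicle's outer and interfollicular edges. Cxcr4 binds Cxcl12, which is made in bone marrow and in the dark zone of germinal centres, and Ccr6 answers to Ccl20 at epithelial surfaces and on memory precursors. Among the S1P receptors, S1pr1 drives exit from lymphoid organs, S1pr2 couples to G proteins that block migration and confines germinal centre B cells, and S1pr3 is known from marginal zone B cells. S1pr4 is a lymphocyte S1P receptor with less clear roles.

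Total counts per library ran from 14231188 to 18194629 in naive cells, 9598674 to 61640683 in CD40L + IL-4 and 22757630 to 73658850 in LPS + IL-4. Spib fell in SpiB KO and DKO cells of every stage, with log2 fold changes from -5.50 to -3.83. Spi1 fell by 1.54 in naive PU.1 cKO and 0.63 in naive DKO cells, by 1.24 and 1.73 after CD40L + IL-4, and by 0.63 in LPS + IL-4 PU.1 cKO cells. In the LPS + IL-4 libraries labelled PU.1 SpiB DKO the fitted change of Spi1 was -0.11 (adjusted p = 0.448) and was not called, so the summed Spi1 count does not show the deletion in them. These counts cover the whole gene, including exons outside the floxed part, and so check the PU.1 part of the labels only in part. The study assessed the deletion from read coverage of the floxed exon, which is not analysed here. The B cell markers Cd79a, Cd79b, Ms4a1, Pax5 and Cd22 were above 1 CPM in all 12 groups. The 8 CD40L + IL-4 libraries stand in a count table of their own and the LPS + IL-4 values were normalized by themselves, so stage and processing cannot be told apart. The level of a transcript in these bulk samples does not tell fewer positive cells from less RNA per cell. With 2 libraries against 2 an exact permutation test cannot give a p below 0.333, so every p below comes from edgeR's quasi-likelihood fit across all genes. A receptor was called where its p, adjusted by the method of Benjamini and Hochberg, lay below 0.15 and its fold change above 1.5, and only called changes are described as rises or falls.

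The promoters of the 4 receptors that fell in PU.1 cKO cells after CD40L + IL-4 are shown, since these receptors moved with the loss of PU.1 in the first of the cultures. PU.1 and SpiB are known to bind purine-rich DNA with a GGAA core. The windows come from RefSeq (GRCm38.p6) and hold 250 bases before and 50 bases after a transcript start, written 5′ to 3′ on the gene's strand. Capitals mark the 6 letters GAGGAA or their reverse complement TTCCTC, both strands having been searched.
Cxcr4 promoter, chr1:128592250-128592549 (minus strand): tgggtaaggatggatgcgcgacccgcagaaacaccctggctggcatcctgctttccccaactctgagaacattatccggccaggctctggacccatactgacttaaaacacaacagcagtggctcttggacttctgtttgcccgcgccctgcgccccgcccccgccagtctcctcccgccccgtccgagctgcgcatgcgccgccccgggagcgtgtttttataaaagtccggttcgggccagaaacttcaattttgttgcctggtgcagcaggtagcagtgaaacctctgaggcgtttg
Ccr6 promoter, chr17:8235793-8236092 (plus strand): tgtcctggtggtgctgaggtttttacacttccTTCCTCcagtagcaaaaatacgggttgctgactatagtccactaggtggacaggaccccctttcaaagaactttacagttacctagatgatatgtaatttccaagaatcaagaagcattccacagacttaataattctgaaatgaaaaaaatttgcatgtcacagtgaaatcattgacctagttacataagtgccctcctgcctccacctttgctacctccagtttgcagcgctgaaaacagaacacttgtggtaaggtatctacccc
Ccr6 promoter, chr17:8242276-8242575 (plus strand): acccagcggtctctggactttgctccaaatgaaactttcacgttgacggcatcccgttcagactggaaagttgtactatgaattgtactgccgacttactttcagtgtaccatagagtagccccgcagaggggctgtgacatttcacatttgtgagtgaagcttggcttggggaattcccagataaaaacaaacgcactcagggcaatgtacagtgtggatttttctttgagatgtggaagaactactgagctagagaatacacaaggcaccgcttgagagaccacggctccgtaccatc
Gpr183 promoter, chr14:121965144-121965443 (minus strand): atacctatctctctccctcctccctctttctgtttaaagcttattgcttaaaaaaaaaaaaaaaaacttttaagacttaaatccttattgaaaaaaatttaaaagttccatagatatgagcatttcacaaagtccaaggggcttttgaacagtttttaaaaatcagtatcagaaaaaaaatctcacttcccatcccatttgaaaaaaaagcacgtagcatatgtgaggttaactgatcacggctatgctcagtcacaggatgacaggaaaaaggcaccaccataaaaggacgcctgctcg
S1pr3 promoter, chr13:51408368-51408667 (plus strand): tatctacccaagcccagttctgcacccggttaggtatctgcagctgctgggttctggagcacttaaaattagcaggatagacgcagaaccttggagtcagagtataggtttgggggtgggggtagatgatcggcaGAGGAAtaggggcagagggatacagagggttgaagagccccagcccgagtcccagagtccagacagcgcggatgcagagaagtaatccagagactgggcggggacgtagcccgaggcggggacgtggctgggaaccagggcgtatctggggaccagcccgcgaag

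The S1pr3 window held 1 match, from base -115 to base -110 counted from the transcript start. Of the Ccr6 windows the upstream one held 1 match, at bases -218 to -213, and the other held none. No match was found in the windows of Cxcr4 and Gpr183. The search was for the motif GAGGAA and not for the shorter GGAA core. That core or its reverse complement TTCC does occur in the printed windows of Cxcr4 and Gpr183 and in the Ccr6 window without a match. For these windows, no match thus does not mean that the core is absent. Windows were also present for S1pr2 and S1pr4, neither with a match. Over all 32851 windows of the same length the motif was found in 28.3%, so 2 of the 7 receptor windows is close to the share in promoters at large.

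In naive cells, loss of PU.1 lowered 4 of the 9 receptors, Cxcr4, Gpr183, S1pr2 and S1pr3, and raised none, where 10.7% of all 12500 genes tested were called in PU.1 cKO against control. The count was 2 of 9 without PU.1 cKO replicate 1, and 2 of 9 without PU.1 cKO replicate 2. SpiB KO cells differed from control only in S1pr3, which rose (background 9.62%). At every stage SpiB KO differed from control also in lacking Cre and carrying floxed Spi1, so the parts of these and of SpiB cannot be told apart. In naive DKO cells Cxcr5, Cxcr4, Ccr7 and Gpr183 fell and S1pr3 rose, 5 of 9 with a background of 21.2%. The median log2 fold change of the 9 receptors was -0.46 in PU.1 cKO cells, -0.13 in SpiB KO cells and -0.44 in DKO, beside medians over all genes of -0.01, 0.01 and 0.00.

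After CD40L + IL-4, Cxcr4, Ccr6, Gpr183 and S1pr3 fell in PU.1 cKO cells (4 of 9, background 13.5%). No receptor was called in SpiB KO cells by edgeR, DESeq2 or voom, none had an unadjusted p under 0.05, and only 0.134% of 12721 genes were called there. In DKO cells Ccr6 and S1pr3 fell and S1pr2 rose (3 of 9, background 18.3%). Medians of the 9 were -0.51, 0.03 and -0.37, with all-gene medians between -0.01 and 0.00.

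After LPS + IL-4, PU.1 cKO cells had lower Cxcr4 and S1pr3 and higher S1pr2 (3 of 9, background 10.5%). In SpiB KO cells Cxcr4, Ccr6, S1pr1 and S1pr4 rose and none fell (4 of 9, background 3.19%, or 397 of 12445 genes, which became 627 with the replicate number as a block while the same number of receptors was called). In the libraries labelled DKO, where the summed Spi1 count was not called, S1pr1, S1pr2 and S1pr4 rose and Ccr6 fell (4 of 9, background 20.2%). Medians of the 9 were -0.23, 0.38 and 0.34, beside 0.00 to 0.01 over all genes. Called rises outnumbered called falls over all genes, by 831 to 479 for PU.1 cKO, 280 to 117 for SpiB KO and 1702 to 811 for the DKO label. The SpiB KO count of receptors was 1 of 9 without SpiB KO replicate 2 and 2 of 9 without control replicate 2. The 3 comparisons of a stage share their 2 control libraries, so their counts are not independent of each other.

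**Figure D1:**
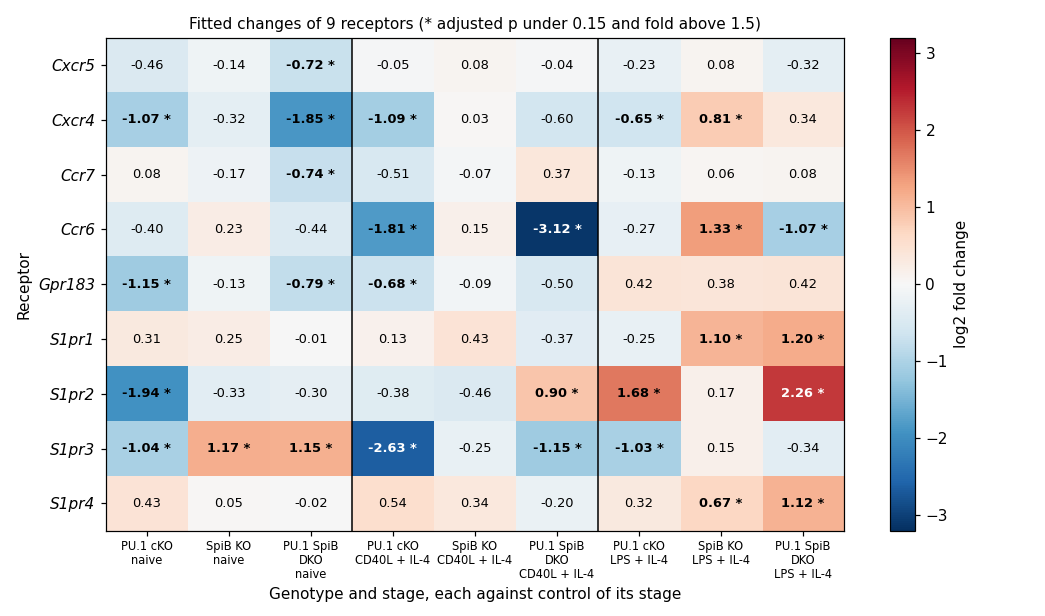
Fitted log2 fold changes of the 9 receptors (rows) against control of the same stage, for 3 genotypes at 3 stages (columns), with colour and printed value giving the change and asterisks marking called ones. Ccr6 after CD40L + IL-4 in DKO cells (-3.12) and S1pr2 after LPS + IL-4 in DKO cells (2.26) are the extremes. The latter starts from control levels of 0.954 and 1.30 CPM.

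Levels of different receptors were compared per transcript length, as RPKM in the 2 control libraries of each stage (mean ± SD). Naive control cells carried most Cxcr5, at 299.9 ± 59.2 RPKM, followed by Cxcr4 (235 ± 14.3), Ccr7 (185 ± 10.5), S1pr1 (152 ± 12.6), S1pr4 (131 ± 0.240), Ccr6 (91.1 ± 0.773) and Gpr183 (78.4 ± 5.21). The libraries of neighbours in this order did not overlap. S1pr2 (2.96 ± 1.27 RPKM) and S1pr3 (2.07 ± 0.160 RPKM) were lowest and overlapped each other.

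After CD40L + IL-4, control cells still had most Cxcr5 (168 ± 37.6 RPKM). S1pr4 (87.1 ± 21.3) overlapped Gpr183 (86.5 ± 11.5), and Ccr7 (56.4 ± 3.57) overlapped Ccr6 (52.8 ± 1.72), with Cxcr4 (49.6 ± 0.737) and S1pr1 (43.2 ± 1.24) next. S1pr3 had come up to 17.7 ± 1.59 RPKM, while S1pr2 lay at 1.44 ± 0.160. In LPS + IL-4 the order was Cxcr5 (118 ± 9.27), then Ccr7 (38.2 ± 0.196) and Gpr183 (36.6 ± 2.45), which overlapped, and S1pr4 (20.9 ± 3.58). S1pr3 (15.2 ± 3.15), S1pr1 (14.2 ± 5.24) and Cxcr4 (12.7 ± 1.43) came next, S1pr1 overlapping both others, and Ccr6 (7.82 ± 1.47) and S1pr2 (0.469 ± 0.133) closed the order.

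**Figure D2:**
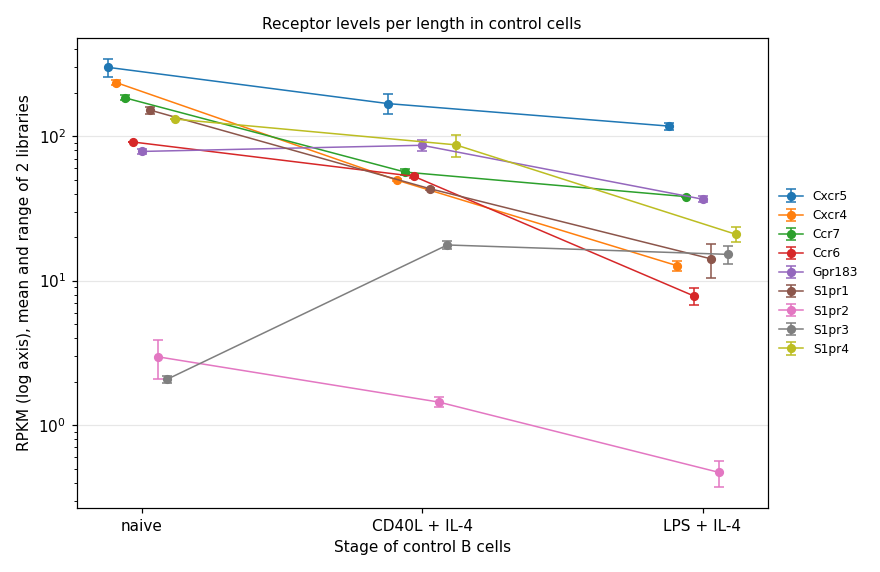
RPKM (log axis) of the 9 receptors in control cells of the 3 stages, with points at the mean and bars over the range of 2 libraries. S1pr3 is the line that climbs from naive to cultured cells, and Ccr6, Cxcr4 and S1pr1 drop furthest towards LPS + IL-4.

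Between stages of control cells, culture with CD40L + IL-4 changed 8 of 9 receptors relative to naive cells (background 48.8% of 13684 genes). S1pr3 rose by 3.23 ± 0.18 (SE) on the log2 scale and 7 receptors fell, from Cxcr4 (-2.26 ± 0.34), S1pr1 (-1.86 ± 0.30) and Ccr7 (-1.74 ± 0.28) to S1pr4 (-0.67 ± 0.19). Gpr183 differed by 0.05 ± 0.14, adjusted p = 0.808. The falls of S1pr2 (-0.85 ± 0.42) and S1pr4 leaned on single libraries: without the naive control replicate 1 that of S1pr2 was -0.32 and without the CD40L + IL-4 control replicate 1 it was -0.71, and without the latter that of S1pr4 was -0.47, none of them called.

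LPS + IL-4 changed all 9 relative to naive cells (background 63.9%), with S1pr3 up by 2.92 ± 0.18 and the other 8 down, most of all Cxcr4 (-4.36 ± 0.37), Ccr6 (-3.71 ± 0.18) and S1pr1 (-3.56 ± 0.32). Between the cultures, 7 of 9 were lower in LPS + IL-4 than in CD40L + IL-4 (background 41.2%), led by Ccr6 (-2.90 ± 0.18), S1pr4 (-2.10 ± 0.20) and Cxcr4 (-2.10 ± 0.35). Cxcr5 (-0.54 ± 0.15, adjusted p = 0.00485) missed the fold threshold and S1pr3 (-0.32 ± 0.16, adjusted p = 0.105) did so too. The lower Ccr7 (-0.63 ± 0.27) was not called without the CD40L + IL-4 control replicate 2 (-0.59), the LPS + IL-4 control replicate 1 (-0.61) or the LPS + IL-4 control replicate 2 (-0.67). Marker lists moved with the stage as well. Of 6 markers of plasmacytoid dendritic cells (pDC), 5 were lower in control cells of either culture than in naive ones (backgrounds 48.8% and 63.9%), with Siglech going from 62.2 and 25 CPM to at most 0.0415 CPM. Their sum, 387 and 288 CPM in naive control, 285 and 265 CPM in CD40L + IL-4 and 209 and 220.5 CPM in LPS + IL-4 libraries, came in culture mostly from Tcf4 (261 and 236 CPM and 142 and 129.9 CPM), a factor that B cells also express. The sum of 4 NK cell markers went from 88.3 and 34.3 to at most 1.02 CPM.

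Marginal zone B cell markers (5 genes) summed to 844 and 1027 CPM in naive control, 102 and 142 after CD40L + IL-4 and 95.8 and 86.9 after LPS + IL-4. Germinal centre markers (4 genes) summed to 111 and 125, 36.6 and 20.2 and 16 and 10.5 CPM in the same order. The B cell markers were lower too, 3 of 5 in CD40L + IL-4 (background 48.8%) and 5 of 5 in LPS + IL-4 (background 63.9%) relative to naive control. Their medians were -0.63 and -1.66 on the log2 scale. The part of any of these lists in the stage differences was not tested.

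**Figure D3:**
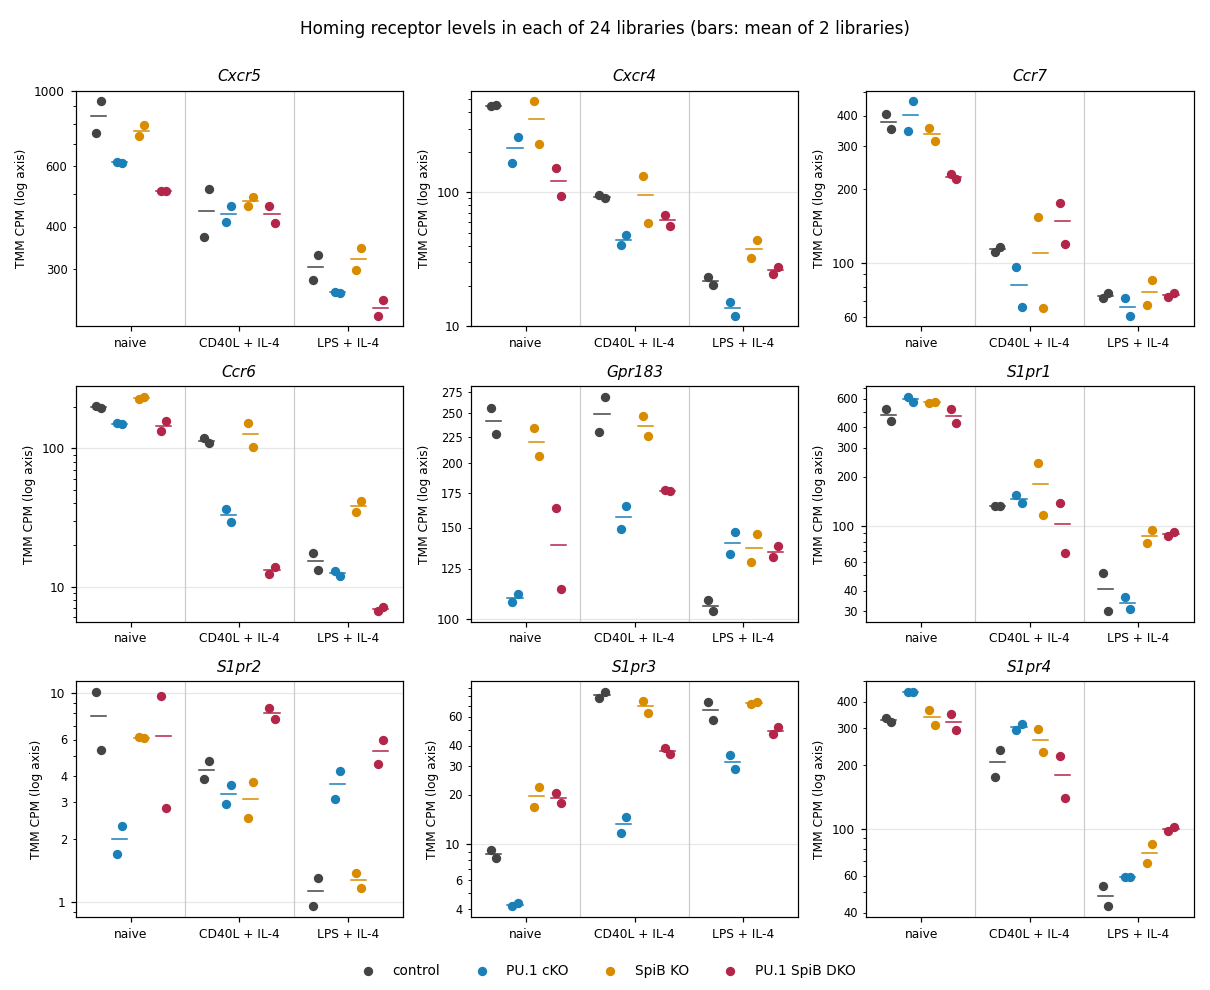
CPM (log axis) of each receptor in all 24 libraries, grouped by stage and coloured by genotype, with bars at the mean of 2 libraries. Ccr6 in CD40L + IL-4 drops from control (108 and 118) to PU.1 cKO (29.5 and 36.3) and DKO (12.3 and 13.8) without overlap.

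Cxcr4 (Entrez ID 12767, chr1:128588199-128592299 on the minus strand) fell in PU.1 cKO cells of every stage. In naive cells it stood at 439.6 and 449 CPM in control, 165 and 260.4 in PU.1 cKO cells, 479.7 and 231 in SpiB KO cells and 151 and 93.2 in DKO libraries. PU.1 cKO and DKO lay below both controls, and the SpiB KO libraries lay 1 above and 1 below them. The log2 fold change was -1.07 ± 0.34, adjusted p = 0.096 in PU.1 cKO cells and -1.85 ± 0.35, adjusted p = 0.00562 in DKO cells, beside -0.32 ± 0.34, adjusted p = 0.656 in SpiB KO. The PU.1 cKO call was lost with DESeq2 (-1.07), without PU.1 cKO replicate 1 (-0.78), without PU.1 cKO replicate 2 (-1.45) and without control replicate 2 (-1.02).

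After CD40L + IL-4, Cxcr4 was at 95.8 and 90.0 CPM in control, 40.6 and 47.7 in PU.1 cKO cells, 133 and 59.0 in SpiB KO cells and 67.8 and 55.9 in DKO. Both PU.1 cKO libraries and both DKO libraries were below the controls, and again the SpiB KO libraries lay on either side of them. The fall was called in PU.1 cKO (-1.09 ± 0.30, adjusted p = 0.0449) but not in DKO (-0.60 ± 0.30, adjusted p = 0.213). It was lost on leaving out control replicate 1 (-1.02), PU.1 cKO replicate 1 (-0.96) or PU.1 cKO replicate 2 (-1.19).

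Levels in LPS + IL-4 were 23.3 and 20.2 CPM in control, 15.2 and 11.9 in PU.1 cKO cells, 32.2 and 43.8 in SpiB KO cells and 24.7 and 27.7 in DKO, so that single losses stood on opposite sides of control. PU.1 cKO was lower (-0.65 ± 0.17, adjusted p = 0.0379), SpiB KO higher (0.81 ± 0.17, adjusted p = 0.0445), and the libraries labelled DKO (0.34 ± 0.17, adjusted p = 0.152) lay above both controls without a call. In a fit of all 24 libraries neither single mutant was called (-0.67 and 0.80). The PU.1 cKO call was also lost without control replicate 1 (-0.52) or PU.1 cKO replicate 2 (-0.50), and the SpiB KO call without control replicate 2 (0.68) or SpiB KO replicate 2 (0.58).

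Cxcr5 (Entrez ID 12145, chr9:44511787-44526444 on the minus strand), the follicle-homing receptor, changed only in naive cells. Control libraries held 751 and 930.4 CPM, PU.1 cKO 619 and 615, SpiB KO 737 and 791 and DKO 509 and 507. The DKO libraries were the lowest and did not overlap control, at -0.72 ± 0.13, adjusted p = 0.00471, while PU.1 cKO (-0.46 ± 0.13, adjusted p = 0.0694) also lay below control but under the fold threshold. The DKO call was lost with voom (-0.58) and without control replicate 2 (-0.53). After CD40L + IL-4 and LPS + IL-4 the fitted changes of Cxcr5 ran from -0.32 ± 0.10 in LPS + IL-4 DKO to 0.08 ± 0.10 in LPS + IL-4 SpiB KO, with no call. Exons of Cxcr5 overlap those of Bcl9l on the opposite strand, and whether the counting used strand is not given in the sources used here.

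Ccr7 (Entrez ID 12775, chr11:99144199-99155077 on the minus strand), which brings B cells to the T cell border, also changed only in naive DKO cells. Its levels were 404 and 352 CPM in control, 345 and 458 in PU.1 cKO cells, 356 and 315 in SpiB KO cells and 231 and 219.6 in DKO. Neither single mutant was called (0.08 ± 0.14 and -0.17 ± 0.14), whereas DKO fell by 0.74 ± 0.14 (adjusted p = 0.00683) and stayed called in each fit that left out 1 library. After CD40L + IL-4 its replicates spread widely, with 154 and 65.2 CPM in SpiB KO cells and 177 and 119.8 in DKO, and in neither culture was a change from control called.

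Ccr6 (Entrez ID 12458, chr17:8236041-8258519 on the plus strand), the Ccl20 receptor, showed the largest fall of the 9 receptors in the comparisons with control of the same stage. After CD40L + IL-4 it stood at 118 and 108 CPM in control, 36.3 and 29.5 in PU.1 cKO cells, 152 and 102 in SpiB KO cells and 12.3 and 13.8 in DKO. SpiB KO libraries lay on either side of the controls, PU.1 cKO libraries were below them and DKO libraries were below PU.1 cKO, all without overlap. The log2 fold change was -1.81 ± 0.21, adjusted p = 0.00036 in PU.1 cKO cells, 0.15 ± 0.20, adjusted p = 1 in SpiB KO cells and -3.12 ± 0.22, adjusted p = 1.35e-05 in DKO. Loss of both factors thus came with a level 8.70-fold lower than control, and loss of PU.1 with a level 3.51-fold lower.

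In LPS + IL-4, where control Ccr6 was 17.4 and 13.1 CPM, SpiB KO and DKO changed in opposite directions. SpiB KO rose to 34.8 and 41.3 CPM (1.33 ± 0.16, adjusted p = 0.00321), PU.1 cKO was at 12.9 and 11.9 (-0.27 ± 0.16, adjusted p = 0.364), and the libraries labelled DKO fell to 6.64 and 7.11 (-1.07 ± 0.16, adjusted p = 0.00113). The latter thus lay 5.27-fold below SpiB KO cells. Naive cells showed no called change of Ccr6, with 201 and 195 CPM in control, 153 and 148 in PU.1 cKO cells, 228 and 236 in SpiB KO cells and 133 and 158 in DKO. There PU.1 cKO (-0.40 ± 0.11, adjusted p = 0.055) and DKO (-0.44 ± 0.11, adjusted p = 0.0185) passed the adjusted p but not the fold threshold.

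Plasma cell markers were higher in the mutants whose Ccr6 fell after CD40L + IL-4, although the sort took CD138- cells. The sum of Sdc1, Prdm1, Xbp1, Jchain and Irf4 after CD40L + IL-4 was 1182 and 1389 CPM in control, 1809 and 2045 in PU.1 cKO cells, 1139 and 1693 in SpiB KO cells and 2283 and 2535 in DKO. All 5 rose in DKO (background 18.3%), and 3 of 5 rose in PU.1 cKO (background 13.5%). Prdm1, the regulator of plasma cell differentiation, went from 8.05 and 8.92 CPM in control to 44.3 and 49.6 in DKO. In LPS + IL-4 the sum was 634 and 704 CPM in control, 1145 and 1258 in PU.1 cKO cells, 724 and 784 in SpiB KO cells and 1504 and 1518 in DKO. There 4 of 5 rose in PU.1 cKO (background 10.5%), in which Ccr6 was not called, and 4 of 5 in DKO (background 20.2%), in which it fell. In SpiB KO, where Ccr6 rose, Jchain alone was called and was higher (background 3.19%). The part of these markers' cells in the level of Ccr6 was not tested.

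Gpr183 (Entrez ID 321019, chr14:121952331-121965193 on the minus strand) fell with the loss of PU.1 in naive cells and after CD40L + IL-4. Naive levels were 256 and 228 CPM in control, 108 and 111 in PU.1 cKO cells, 234 and 207 in SpiB KO cells and 164 and 114 in DKO, with PU.1 cKO and DKO both below control. The change was -1.15 ± 0.16, adjusted p = 0.00359 in PU.1 cKO cells and -0.79 ± 0.16, adjusted p = 0.00884 in DKO, and the latter was not called without DKO replicate 2 (-0.56). After CD40L + IL-4 the libraries held 229.8 and 269.5 CPM in control, 149 and 166 in PU.1 cKO cells, 247 and 226 in SpiB KO cells and 178 and 177 in DKO.

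That fall was called in PU.1 cKO (-0.68 ± 0.15, adjusted p = 0.0167, and not called at -0.58 without control replicate 2), while DKO (-0.50 ± 0.15, adjusted p = 0.0493) missed the fold threshold. In LPS + IL-4 the direction was the other one: all 6 mutant libraries, from 128.7 to 147 CPM, were above the controls at 109 and 103 CPM. The fitted changes of 0.42 ± 0.09, 0.38 ± 0.09 and 0.42 ± 0.09 passed the adjusted p but stayed below the fold threshold.

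S1pr1 (Entrez ID 13609, chr3:115710433-115715055 on the minus strand), the egress receptor, and S1pr4 (Entrez ID 13611, chr10:81497745-81500137 on the minus strand) rose together in LPS + IL-4 cultures that lacked SpiB. S1pr1 stood at 51.5 and 30.1 CPM in control, 36.7 and 30.8 in PU.1 cKO cells, 78.6 and 94.7 in SpiB KO cells and 86.1 and 91.1 in DKO. The 4 libraries without SpiB lay above both controls and both PU.1 cKO libraries. Its change was 1.10 ± 0.22, adjusted p = 0.0369 in SpiB KO cells, 1.20 ± 0.22, adjusted p = 0.00295 in DKO and -0.25 ± 0.22, adjusted p = 0.582 in PU.1 cKO. The SpiB KO call was lost without SpiB KO replicate 2 (0.96).

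S1pr4 stood at 53.5 and 42.8 CPM in LPS + IL-4 control, 59.2 and 59.4 in PU.1 cKO cells, 68.7 and 84.4 in SpiB KO cells and 97.7 and 101 in DKO, each mutant above both controls and DKO above all others. SpiB KO (0.67 ± 0.13, adjusted p = 0.0316) and DKO (1.12 ± 0.13, adjusted p = 0.000225) were called and PU.1 cKO (0.32 ± 0.13, adjusted p = 0.163) was not. Without control replicate 2 (0.49) or SpiB KO replicate 2 (0.52) the SpiB KO call was lost, while the DKO calls of S1pr1 and S1pr4 held in each fit that left out 1 library.

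The summed level of marginal zone markers was also higher in the 4 LPS + IL-4 libraries without SpiB, at 95.8 and 86.9 CPM in control, 103 and 82.1 in PU.1 cKO cells, 159 and 186 in SpiB KO cells and 143 and 147 in DKO. Of the 5, Dtx1 rose in SpiB KO (background 3.19%), and Cd9 and Dtx1 rose in DKO (background 20.2%). The part of such cells in the rise of S1pr1 and S1pr4 was not tested.

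Neither receptor was called in naive cells or after CD40L + IL-4. Naive S1pr1 ran from 426 to 618 CPM over the 8 libraries and naive S1pr4 from 294.5 to 445 CPM, the PU.1 cKO libraries being the highest in S1pr4 (445 and 445 CPM; 0.43 ± 0.12, adjusted p = 0.0681). After CD40L + IL-4, S1pr1 varied within groups, with 243 and 117 CPM in SpiB KO cells and 138 and 67.9 in DKO beside 132 and 132 in control. Across the 12 group means, centred within stages, S1pr1 and S1pr4 had the highest correlation of any 2 receptors (r = 0.82, a description over groups that share libraries within a stage).

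S1pr2 (Entrez ID 14739, chr9:20965952-20976793 on the minus strand), which holds germinal centre B cells in place, was the least abundant receptor of cultured cells. In PU.1 cKO it was called lower in naive cells, not called after CD40L + IL-4 (-0.38 ± 0.30) and called higher after LPS + IL-4. The difference of the PU.1 cKO effect between stages was not tested. Naive libraries held 10.1 and 5.35 CPM in control, 1.70 and 2.30 in PU.1 cKO cells, 6.16 and 6.09 in SpiB KO cells and 9.71 and 2.81 in DKO. PU.1 cKO was below all other groups (-1.94 ± 0.55, adjusted p = 0.0645), resting on 25 and 34 reads, and the DKO libraries, far apart from each other, overlapped the controls (-0.30 ± 0.49, adjusted p = 0.711). The PU.1 cKO call was lost without control replicate 1 (-1.45), PU.1 cKO replicate 1 (-1.75) or PU.1 cKO replicate 2 (-2.19).

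Germinal centre markers fell along with S1pr2 in naive PU.1 cKO cells, and some also fell in DKO, where S1pr2 was not called. The sum of Bcl6, Mybl1, Rgs13 and Gcsam was 111 and 125 CPM in control, 33.4 and 31.4 in PU.1 cKO cells, 81.2 and 91.4 in SpiB KO cells and 46.9 and 42.2 in DKO. All 4 fell in PU.1 cKO (median log2 fold change -2.02, background 10.7%), 2 of 4 fell in DKO (background 21.2%) and 0 of 4 was called in SpiB KO (background 9.62%). Bcl6, the master regulator of germinal centre B cells, was at 95 and 118 CPM in naive control and 29.8 and 29.3 in PU.1 cKO. The part of germinal centre cells in the level of S1pr2 was not tested.

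After LPS + IL-4, S1pr2 rose in PU.1 cKO cells and in the libraries labelled DKO. Levels were 0.954 and 1.30 CPM in control, 1.38 and 1.17 in SpiB KO cells, 3.12 and 4.23 in PU.1 cKO cells and 4.56 and 5.99 in DKO. The 4 libraries of PU.1 cKO and DKO lay above the other 4. The change was 1.68 ± 0.27, adjusted p = 0.00317 in PU.1 cKO cells and 2.26 ± 0.27, adjusted p = 0.000259 in DKO, which is 4.79-fold, and both calls held in each fit that left out 1 library. The control level was near the floor, at 23 and 73 reads. Mean log2 RPKM was -1.12 in control, 0.45 in PU.1 cKO and 0.90 in DKO. The study's figures also asked for a log2 RPKM above 0, which was not part of a call here. After CD40L + IL-4 only DKO was higher, at 8.53 and 7.56 CPM beside 3.90 and 4.71 in control, 2.51 and 3.75 in SpiB KO cells and 2.95 and 3.62 in PU.1 cKO.

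This rise (0.90 ± 0.30, adjusted p = 0.0754) was lost without control replicate 1 (0.77), DKO replicate 1 (0.81) or DKO replicate 2 (0.99). In DKO replicate 1 the ribosomal transcript Rn45s took 6.64% of the counts. Of the 4 germinal centre markers only Gcsam rose in PU.1 cKO and DKO cells of both cultures, while 1 fell in PU.1 cKO cells of either culture and 2 in DKO cells after CD40L + IL-4. Backgrounds for PU.1 cKO and DKO were 13.5% and 18.3% after CD40L + IL-4 and 10.5% and 20.2% in LPS + IL-4. Gcsam was at 0.339 and 0.307 CPM in control and 14.5 and 8.31 in DKO after CD40L + IL-4, where the sum of the 4 was 36.6 and 20.2 CPM in control and 30.2 and 18.2 in DKO. In LPS + IL-4 that sum was 16 and 10.5 CPM in control and 23.6 and 17.9 in DKO, and the part of these markers' cells in S1pr2 was not tested.

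S1pr3 (Entrez ID 13610, chr13:51408618-51422797 on the plus strand) changed in 6 of the 9 comparisons with control, and was the only receptor raised in naive cells. Naive libraries held 9.14 and 8.25 CPM in control, 4.15 and 4.33 in PU.1 cKO cells, 16.9 and 22.3 in SpiB KO cells and 20.5 and 17.9 in DKO. PU.1 cKO libraries were below control and the 4 libraries without SpiB were above, with no overlap. The fitted changes were -1.04 ± 0.21, adjusted p = 0.0195 in PU.1 cKO cells, 1.17 ± 0.19, adjusted p = 0.00694 in SpiB KO cells and 1.15 ± 0.19, adjusted p = 0.00311 in DKO.

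Most markers of pDC, cells that also carry B220, rose with S1pr3 in naive SpiB KO and DKO cells. None was called in PU.1 cKO, where S1pr3 fell. The sum of Siglech, Bst2, Ccr9, Tcf4, Klk1 and Cd209d was 387 and 288 CPM in control, 316 and 332 in PU.1 cKO cells, 1313 and 1104 in SpiB KO cells and 1459 and 1424 in DKO. In SpiB KO and in DKO cells 5 of the 6 rose and in PU.1 cKO 0 of 6 was called. For this and the next lists the backgrounds were 9.62% in SpiB KO, 21.2% in DKO and 10.7% in PU.1 cKO. Siglech, a defining pDC surface lectin, was at 62.2 and 25 CPM in control, 252 and 213 in SpiB KO cells and 281 and 244 in DKO. T cell markers summed to 105 and 68.4 CPM in naive control, 388 and 325 in SpiB KO cells and 502 and 491 in DKO, with Cd4 and Cd8a higher in SpiB KO and Cd4, Cd8a and Lck in DKO, of 6 tested. Cd3d, Cd3e and Cd3g, which define T cells and whose surface protein the sort removed, stayed at or under 1.29 CPM in every naive library. Macrophage markers summed to 23.7 and 11.2 CPM in naive control, 63.6 and 52.0 in SpiB KO cells and 71.9 and 73.2 in DKO, with 1 and 3 of 4 tested higher. Marginal zone B cell markers, whose cells are known for S1pr3, summed to 844 and 1027 CPM in control, 868 and 989 in SpiB KO cells and 981 and 1087 in DKO, with 0 of 5 called in SpiB KO and Cd9 and Dtx1 higher in DKO. In PU.1 cKO, where S1pr3 fell, Cd1d1 and Dtx1 were higher. The part of any of these cells in the rise of S1pr3 was not tested.

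**Figure D4:**
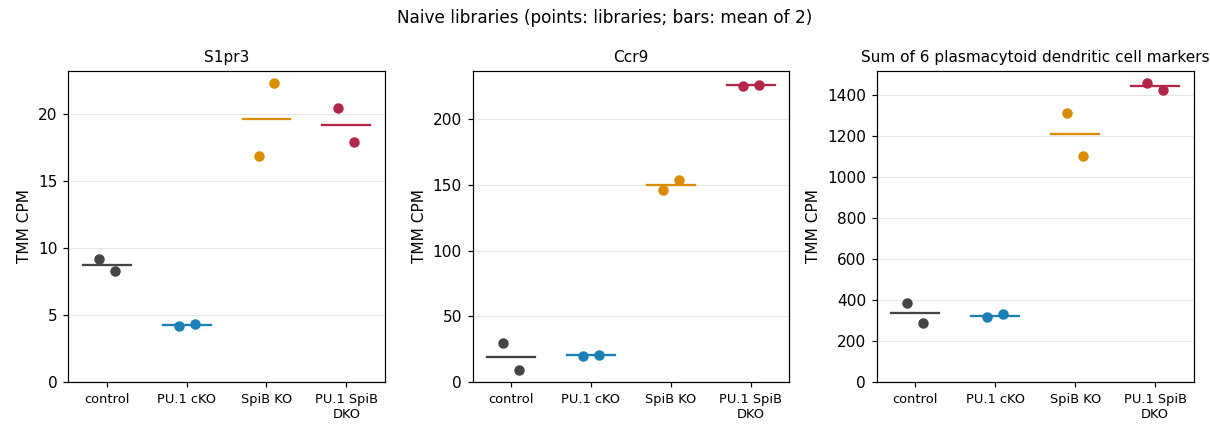
CPM of S1pr3, of the pDC chemokine receptor Ccr9 and of the sum of 6 pDC markers in the 8 naive libraries, with points for libraries and bars at the mean of 2. In all 3 panels the 4 libraries without SpiB lie above control and PU.1 cKO.

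After CD40L + IL-4, S1pr3 was at 78.3 and 85.2 CPM in control, 11.7 and 14.7 in PU.1 cKO cells, 75.5 and 63.4 in SpiB KO cells and 38.7 and 35.5 in DKO. No groups overlapped, PU.1 cKO being lowest, then DKO, then SpiB KO, then control. PU.1 cKO was 6.20-fold lower than control (-2.63 ± 0.18, adjusted p = 8.71e-06), DKO 2.22-fold lower (-1.15 ± 0.17, adjusted p = 0.00126), and SpiB KO was not called (-0.25 ± 0.16, adjusted p = 1). In LPS + IL-4 the levels were 74.3 and 57.2 CPM in control, 34.9 and 28.7 in PU.1 cKO cells, 71.5 and 74.1 in SpiB KO cells and 47.0 and 52.0 in DKO. PU.1 cKO alone was called (-1.03 ± 0.14, adjusted p = 0.00159), and DKO (-0.34 ± 0.14, adjusted p = 0.0953) lay between PU.1 cKO and control. All 6 calls held in each fit that left out 1 library.

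Of the macrophage list after CD40L + IL-4, Cd68 and Adgre1 fell with S1pr3 in PU.1 cKO and DKO cells (backgrounds 13.5% and 18.3%). Cd68 was at 12.2 and 13.8 CPM in control, 2.66 and 2.86 in PU.1 cKO cells and 3.58 and 3.92 in DKO, and Adgre1 at 26.8 and 41.2, 1.48 and 2.30 and 4.74 and 4.11 CPM. Csf1r was at 0 in all 8 libraries of that culture, and Lyz2 and Fcgr1 were at 0 or at most 0.316 CPM. The S1pr3 exons overlap an exon of Gm32834 on the opposite strand, and reads of that gene could not be set apart without strand.

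Whether losing both factors differed from the single losses together was tested as their interaction, the DKO change minus the sum of the single changes on the log2 scale. It was called for Ccr6 and S1pr3 after CD40L + IL-4 (2 of 9, background 1.17%), for Ccr6 in LPS + IL-4 (1 of 9, background 1.38%, or 172 genes, and 540 when replicate number was a block, which changed no receptor's call there) and for no receptor in naive cells (background 0.936%; 5 of 9 had an unadjusted p under 0.05 in edgeR, DESeq2 called 2 and voom 0). After CD40L + IL-4, Ccr6 fell further in DKO than the single losses add up to, by 1.46 ± 0.29 (adjusted p = 0.0844). In LPS + IL-4 its DKO change lay below the sum of the single changes by 2.13 ± 0.22 (adjusted p = 0.00414). That sum held no called fall: Ccr6 rose in SpiB KO (1.33 ± 0.16) and was not called in PU.1 cKO (-0.27 ± 0.16). The libraries labelled DKO fell by 1.07 ± 0.16. S1pr3 after CD40L + IL-4 went the other way, at 1.73 ± 0.24, adjusted p = 0.0104: its loss in DKO was smaller than in PU.1 cKO. The naive count was 3 of 9 without control replicate 1 and 1 of 9 without DKO replicate 2, and the LPS + IL-4 count was 3 of 9 without control replicate 2. SpiB KO mice carried no Cre, unlike the other groups, so a part of Cre in the interaction cannot be told apart. Nor can that of Spi1, whose summed count changed unequally in PU.1 cKO and DKO. The changes of this count were -1.54 and -0.63 in naive cells, -1.24 and -1.73 after CD40L + IL-4 and -0.63 and -0.11 in LPS + IL-4. It includes exons outside the floxed part and so does not measure how complete the deletion was.

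The CD40L + IL-4 interaction of Ccr6 was lost with voom (-1.40) and without control replicate 1 (-1.55), control replicate 2 (-1.39), PU.1 cKO replicate 1 (-1.34), SpiB KO replicate 1 (-1.15) or DKO replicate 2 (-1.57). Those of Ccr6 in LPS + IL-4 and of S1pr3 held in each such fit.

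**Figure D5:**
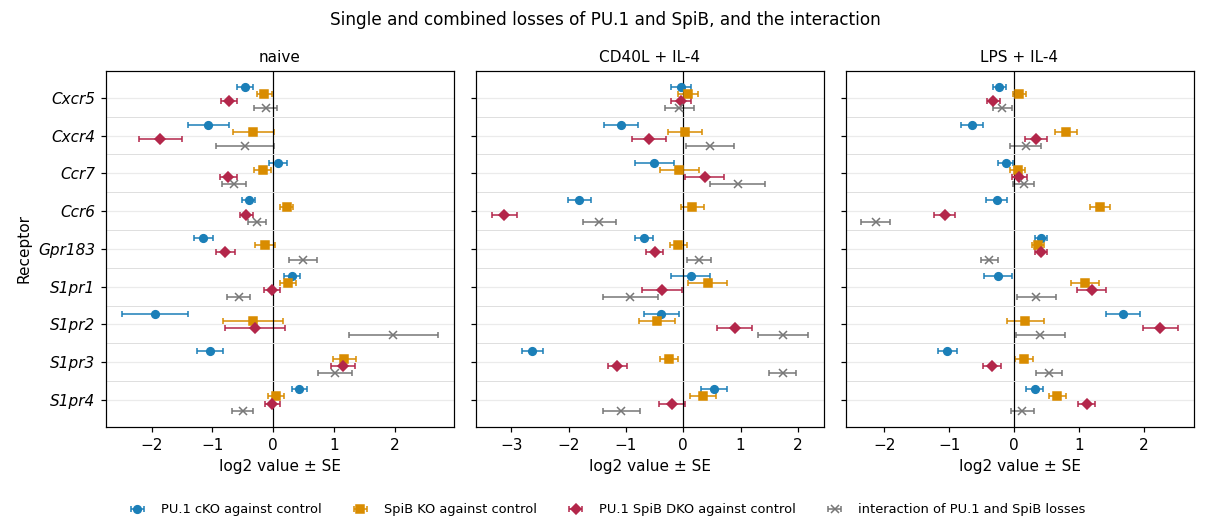
Fitted log2 fold changes against control (filled symbols) and the interaction of the losses (crosses) for each receptor at each stage, with bars of 1 SE. Ccr6 has its cross far left of 0 in both cultures (-1.46 and -2.13), and S1pr3 has it right of 0 after CD40L + IL-4 (1.73).

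Set directly against PU.1 cKO, DKO cells differed in 3 receptors in naive cells (background 12.9%), 3 after CD40L + IL-4 (background 4.06%) and 5 in LPS + IL-4 (background 12.6%). Ccr6 was lower in both cultures (-1.31 ± 0.22 and -0.80 ± 0.16) and S1pr3 higher at all 3 stages (2.19 ± 0.20, 1.48 ± 0.17 and 0.69 ± 0.14). Naive Ccr7 was lower (-0.82 ± 0.14) and LPS + IL-4 Cxcr4 (0.99 ± 0.17), S1pr1 (1.44 ± 0.22) and S1pr4 (0.80 ± 0.13) were higher. S1pr2 was higher in naive cells (1.65 ± 0.55) and after CD40L + IL-4 (1.28 ± 0.29). The CD40L + IL-4 count was 5 of 9 without SpiB KO replicate 1, and 5 of 9 without SpiB KO replicate 2.

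Both S1pr2 calls rested on single libraries. The naive one was lost with voom (1.03) and without PU.1 cKO replicate 1 (1.45), PU.1 cKO replicate 2 (1.88) or DKO replicate 1 (0.49), and was 2.30 without DKO replicate 2. The other was lost without any 1 of the 4 libraries compared (1.15 to 1.44). In LPS + IL-4 the S1pr3 call was lost without PU.1 cKO replicate 2 (0.57).

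Set against SpiB KO, DKO cells differed in 3 receptors in naive cells (background 3.05%), 3 after CD40L + IL-4 (background 15.3%) and 2 in LPS + IL-4 (background 12.8%). Ccr6 was lower at every stage (-0.67 ± 0.11, -3.27 ± 0.23 and -2.40 ± 0.16), and S1pr2 was higher in CD40L + IL-4 (1.36 ± 0.31) and LPS + IL-4 (2.09 ± 0.26). Naive Cxcr4 (-1.53 ± 0.34) and Gpr183 (-0.65 ± 0.16) and CD40L + IL-4 S1pr3 (-0.90 ± 0.17) were lower. Naive S1pr3 differed little between DKO and SpiB KO (-0.02 ± 0.18, adjusted p = 0.978).

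Among the naive calls against SpiB KO, that of Cxcr4 was lost without SpiB KO replicate 1 (-0.91) or DKO replicate 2 (-1.22) and that of Ccr6 without DKO replicate 1 (-0.56). The Gpr183 call was lost without PU.1 cKO replicate 1 (-0.65), PU.1 cKO replicate 2 (-0.66), SpiB KO replicate 1 (-0.56), SpiB KO replicate 2 (-0.74) or DKO replicate 2 (-0.41). The naive count was 1 of 9 without SpiB KO replicate 1 or without DKO replicate 2, and the CD40L + IL-4 count was 5 of 9 without DKO replicate 1 and 6 of 9 without SpiB KO replicate 2.

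The size of the DKO effect was then compared between stages. Between CD40L + IL-4 and naive cells it differed for 5 of 9 (background 14.4%), between LPS + IL-4 and naive cells for 7 of 9 (background 23.7%) and between the cultures for 5 of 9 (background 22.5%). The first of these counts was 2 of 9 without CD40L + IL-4 control replicate 1, 3 of 9 without CD40L + IL-4 DKO replicate 1 and 3 of 9 without naive DKO replicate 2. Ccr6 fell more in CD40L + IL-4 than in naive cells (-2.66 ± 0.25, adjusted p = 9.44e-07) and more than in LPS + IL-4 (LPS + IL-4 minus CD40L + IL-4, 1.97 ± 0.25, adjusted p = 0.000185). The effect on S1pr3, a rise in naive cells, differed by -2.28 ± 0.24, adjusted p = 4.35e-06 in CD40L + IL-4 and -1.55 ± 0.24, adjusted p = 0.000192 in LPS + IL-4 from naive. The effects on Cxcr4 and S1pr2 were higher in LPS + IL-4 than in naive cells, by 2.13 ± 0.47, adjusted p = 0.00439 and 2.50 ± 0.58, adjusted p = 0.00577. The S1pr2 value was 3.64 without naive DKO replicate 1 and 1.86 without naive DKO replicate 2. The summed Spi1 count changed by -0.63, -1.73 and -0.11 in DKO cells of the 3 stages. That count does not measure how complete the deletion was, and the part of Spi1 in these differences cannot be told apart.

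Beyond the 9, 20 other chemokine and S1P receptors were listed, most of them near 0 in B cells. Whether this or any list below held more calls than its background was not tested. In naive cells 1 rose and 0 fell of 13 tested in PU.1 cKO (background 10.7%). In SpiB KO 5 rose and 0 fell (background 9.62%), and in DKO 8 rose and 0 fell (background 21.2%). The 3 largest changes in naive DKO were those of Ackr3, a scavenger of Cxcl12, Ccr9, the gut-homing receptor that is also a pDC marker, and Ccr10, which guides plasma cells to mucosa and skin. Ackr3 went from 0.381 and 0.0743 CPM in control to 9.06 and 7.98 in DKO (adjusted p = 9.82e-05), and it was at 0.761 and 1.09 in SpiB KO cells and 7.01 and 6.02 in PU.1 cKO. Ccr9 rose from 29.4 and 9.07 to 225 and 226 CPM (3.57 ± 0.38, adjusted p = 0.00024), and Ccr10 from 0.533 and 0.223 to 2.01 and 2.87 CPM (adjusted p = 0.0273).

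After CD40L + IL-4, 3 rose and 1 fell of 9 tested in PU.1 cKO (background 13.5%). In SpiB KO 0 rose and 0 fell (background 0.134%), and in DKO 3 rose and 0 fell (background 18.3%). Ccr10 had 0.0847 and 0.205 CPM in control and 8.0 and 9.89 in DKO (adjusted p = 0.000175), the control value resting on 3 reads in all. Ccr4, a receptor of T helper and memory cells, went from 3.13 and 1.64 to 8.84 and 13.2 CPM (2.17 ± 0.37, adjusted p = 0.00335) and Ccrl2 from 0.678 and 0.820 to 3.16 and 2.80 CPM (1.98 ± 0.49, adjusted p = 0.0235). In LPS + IL-4, 4 rose and 0 fell of 10 tested in PU.1 cKO (background 10.5%), and 0 rose and 0 fell in SpiB KO (background 3.19%). In DKO 4 rose and 1 fell (background 20.2%), and Ccr9 (2.71 ± 0.29, adjusted p = 0.000144), Ccr10 (1.96 ± 0.45, adjusted p = 0.0094) and Ccr4 (1.93 ± 0.24, adjusted p = 0.000385) were among those that rose. The ligands Ccl19, Ccl20 and Ccl21a had no read in any of the 24 libraries, and Cxcl12 and Cxcl13 stayed at or under 0.381 and 1.90 CPM.

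In the list of 11 enzymes and transporters of S1P and oxysterols, 2 rose and 0 fell of 8 tested in naive PU.1 cKO (background 10.7%). In naive SpiB KO 1 rose and 1 fell (background 9.62%), and in naive DKO cells 3 rose and 1 fell (background 21.2%). The S1P phosphatase Sgpp2 rose in naive DKO (1.52 ± 0.23, adjusted p = 0.00165) and LPS + IL-4 DKO cells (2.17 ± 0.43, adjusted p = 0.00458). Cyp7b1 and Hsd3b7 act on the oxysterol ligand of Gpr183. Cyp7b1 was at 0.228 and 0 CPM in naive control and 3.43 and 2.02 in DKO (adjusted p = 0.00456), and Hsd3b7 rose there by 1.22 ± 0.39, adjusted p = 0.0542. After CD40L + IL-4, 1 rose and 0 fell of 7 tested in PU.1 cKO (background 13.5%), and 0 rose and 0 fell in SpiB KO (background 0.134%). In DKO 0 rose and 1 fell (background 18.3%), that 1 being the lipid phosphatase Plpp3 (-1.29 ± 0.46, adjusted p = 0.0919). In LPS + IL-4, 0 rose and 0 fell of 7 tested in PU.1 cKO (background 10.5%). In SpiB KO 0 rose and 0 fell (background 3.19%), and in DKO 1 rose and 0 fell (background 20.2%).

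The list of 15 genes for signal transduction, desensitization and surface level covers G protein subunits, receptor kinases, arrestins, Cd69, which removes S1pr1 from the surface, and the receptor-inducing factors Klf2 and Foxo1. In naive cells 0 rose and 3 fell of 15 tested in PU.1 cKO (background 10.7%). In SpiB KO 0 rose and 0 fell (background 9.62%), and in DKO 1 rose and 3 fell (background 21.2%). Arrb1, a β-arrestin that ends receptor signalling, stood at 84.8 and 88.8 CPM in naive control and 34.8 and 41.7 in DKO (-1.17 ± 0.17, adjusted p = 0.00149), and after CD40L + IL-4 at 21.3 and 20.2 CPM in control and 7.58 and 5.13 in DKO (-1.72 ± 0.24, adjusted p = 0.000836). In naive DKO cells the related Arrb2 also fell (-0.64 ± 0.17, adjusted p = 0.0263), and the receptor kinase Grk3 rose (0.82 ± 0.34, adjusted p = 0.122).

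After CD40L + IL-4, 1 rose and 4 fell of 15 tested in PU.1 cKO (background 13.5%), and 0 rose and 0 fell in SpiB KO (background 0.134%). In DKO 1 rose and 2 fell (background 18.3%), and the G protein subunit Gna12 was among those that fell (-0.81 ± 0.20, adjusted p = 0.0214). In LPS + IL-4, 1 rose and 1 fell of 15 tested in PU.1 cKO (background 10.5%). In SpiB KO 0 rose and 0 fell (background 3.19%), and in DKO 4 rose and 0 fell (background 20.2%). Foxo1 rose in DKO cells of both cultures, from 135 and 119 to 305 and 296 CPM in LPS + IL-4 (1.31 ± 0.09, adjusted p = 1.53e-05) and by 0.66 ± 0.17, adjusted p = 0.0293 after CD40L + IL-4. Gnaq (1.07 ± 0.15, adjusted p = 0.000695) and Grk3 (1.55 ± 0.68, adjusted p = 0.108) rose in LPS + IL-4 DKO cells. Median changes of the lists' tested genes ran from -0.74 to 1.29, both in the list of other receptors, over comparisons with control.

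The genes whose levels followed each receptor most closely were found by Pearson's r across the 12 group means, centred within stages, among 9762 genes with a mean of at least 5 CPM. They share libraries, depth and groups with the receptor, and the values are a description. For Cxcr5 they were Zfp110 (r = 0.93) and Gpatch11 (r = 0.93), for Cxcr4 Tmem64 (r = 0.94) and Nrm (r = 0.93), for Ccr7 Dis3l (r = 0.87) and for Ccr6 Commd7 (r = 0.94) and 5430427O19Rik (r = 0.94). Gpr183 went with Fam105b (r = 0.94) and Mbd2 (r = 0.92). Among the S1P receptors, S1pr1 went with Zkscan14 (r = 0.96) and Cerk (r = 0.93), S1pr2 with Gnptab (r = 0.90) and Rgs1 (r = 0.89), S1pr3 with Adora2a (r = 0.97) and Abhd6 (r = 0.96) and S1pr4 with Pcmtd1 (r = 0.95) and Stk38 (r = 0.94).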

How the data were processed

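RNA of lymph node B cells, 2 biological replicates for each of 4 genotypes at 3 stages, was sequenced as Illumina TruSeq libraries. The authors aligned reads with Subread to GRCm38/mm10, kept unique alignments, counted them over exons of RefSeq genes with featureCounts and deposited raw counts per gene, as well as log2 RPKM per library, quantile normalized and filtered apart for LPS + IL-4. The protocol label of all samples names CD40L+IL-4 culture, and stages were taken from sample titles and cell types. Replicates differed beyond sampling noise in every group (chi-square of 10.2 to 105 per degree of freedom). Counts were analysed in R 4.3.3 with edgeR 4.0.16 (TMM, glmQLFit and glmQLFTest), after removal of genes that did not reach 0.5 CPM in 2 or more libraries. Each stage was fitted on its 8 libraries, and stage contrasts on all 24. A call needed an adjusted p under 0.15 and a fold above 1.5, as in the study's methods. Levels are TMM-scaled CPM, and receptors were ranked in RPKM from the deposited log2 RPKM values.

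Alternatives were DESeq2 1.42.0, its size factors in edgeR, limma 3.58.1 voom with quantile normalization, no filter, a threshold on RPKM, an adjusted p under 0.05, a replicate block, other sets of libraries and leaving out each of the 24 libraries. Replicate numbers looked like pairs in LPS + IL-4, where all 6 correlations of same-numbered libraries lay between 0.386 and 0.514. The main fits did not use these pairs at any stage, and only the alternative with a replicate block did. The pipeline was tested on simulated data. Named genes were all 9 receptors, Spi1 and Spib, the 3 called genes of each pathway list with the largest change in DKO at each stage, and the 2 genes most correlated with each receptor. Some genes of these lists are not reported here, and marker sums leave them out. Ligand, marker and motif values are given beside them. The receptors and all lists were chosen with earlier results of these data known. Plpp3, Grk3, Adgre1 and Jchain are listed in the tables as Ppap2b, Adrbk2, Emr1 and Igj. Gene positions and promoters are from RefSeq and exon overlaps from GENCODE vM21, all on GRCm38, and no promoter window was found for Cxcr5, Ccr7 and S1pr1. Figures were drawn with matplotlib 3.10.9.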

Additional observations from a re-analysis of the deposited data

Results flagged for a closer look

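In 3 cases the effect of losing both factors differed from the sum of the single losses, by the test of that interaction. For Ccr6 the interaction on the log2 scale was -1.46 after CD40L + IL-4 and -2.13 after LPS + IL-4. For S1pr3 after CD40L + IL-4 it was 1.73.

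The effect of the double loss against control differed between stages in 17 tests of the difference itself, which share the libraries of each stage. From naive cells to CD40L + IL-4 it shifted by 0.70 for Cxcr5, 1.28 for Cxcr4 and 1.13 for Ccr7, and by -2.66 for Ccr6 and -2.28 for S1pr3. The Cxcr5 shift was not called with voom (0.53), in a fit of the compared libraries alone (0.68), without CD40L + IL-4 control replicate 1 (0.46) or without naive control replicate 2 (0.54). That of Cxcr4 was not called with voom (1.14) or without CD40L + IL-4 control replicate 1 (1.30) or 2 (1.23), CD40L + IL-4 DKO replicate 1 (1.13), naive control replicate 2 (1.26) or naive DKO replicate 2 (0.97). That of Ccr7 was not called without CD40L + IL-4 control replicate 1 (1.07), CD40L + IL-4 DKO replicate 1 (0.83), naive control replicate 1 (1.03) or naive DKO replicate 2 (1.09).

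From naive cells to LPS + IL-4 the shift was 2.13 for Cxcr4, 1.15 for Gpr183, 1.15 for S1pr1, 2.50 for S1pr2 and 1.08 for S1pr4, and -0.69 for Ccr6 and -1.55 for S1pr3. The Ccr6 shift was not called without naive DKO replicate 2 (-0.56), LPS + IL-4 control replicate 1 (-0.51) or LPS + IL-4 DKO replicate 1 (-0.67), and that of S1pr1 without naive DKO replicate 2 (1.02) or LPS + IL-4 control replicate 2 (0.77). From CD40L + IL-4 to LPS + IL-4 it was 1.97 for Ccr6, 0.84 for Gpr183, 1.49 for S1pr1, 0.73 for S1pr3 and 1.25 for S1pr4. The S1pr1 value was 2.09 without CD40L + IL-4 DKO replicate 1, and the S1pr3 shift was not called without LPS + IL-4 control replicate 2 (0.55).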

How the results depend on the processing

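Added up over its comparisons, the number of called receptors against control within a stage (10 naive, 7 CD40L + IL-4, 11 LPS + IL-4), between stages of control cells (24), of the double loss against the single losses (19) and of the shift of the DKO effect (17) stayed within 1.5 times under all alternatives run. Counts of single comparisons moved by more when 1 library was left out, as given beside them, and in CD40L + IL-4 DKO against PU.1 cKO went from 3 to 5 with no filter on low counts, all 24 libraries, only the libraries compared or the replicate block, and DKO against SpiB KO from 3 to 5 with no filter. In the sums against the single losses and of interactions, a left-out library changed only its own stage, which limits how far these sums could move. The sum of interactions did not stay within 1.5 times. It was 3 over the 3 stages and became 10 with no filter on low counts, 7 with DESeq2, 7 with the replicate number as a block, 6 with all 24 libraries in 1 fit, and 2 to 6 when single libraries were left out (the cause was not tested). Of the receptors' values in fits without 1 library, 2446 kept the side of the threshold and, but for small changes of sign, the direction. A further 66 lost a call, 49 gained 1 and 31 turned sign, none of the last being a call. Many of these fits left out a library outside the comparison, which moves the fitted value little, so the number kept does not measure stability. With voom S1pr1 in naive DKO turned to 0.12. The ranges over those fits that crossed 0 were, in CD40L + IL-4 SpiB KO against control for Cxcr5 (-0.12 to 0.32), Cxcr4 (-0.67 to 0.52), Ccr6 (-0.16 to 0.43), S1pr1 (-0.19 to 0.88) and Ccr7 (-0.82 to 0.44), in CD40L + IL-4 DKO against SpiB KO for Cxcr4 (-1.10 to 0.075) and Ccr7 (-0.054 to 1.19) and in CD40L + IL-4 PU.1 cKO against control for Cxcr5 (-0.24 to 0.19). Also crossing 0 were, in CD40L + IL-4 DKO against control for Cxcr5 (-0.24 to 0.20), S1pr1 (-0.97 to 0.063) and S1pr4 (-0.57 to 0.10), in CD40L + IL-4 interactions for Cxcr4 (-0.034 to 1.17) and in shift of the DKO effect from naive to CD40L + IL-4 for S1pr1 (-0.93 to 0.085) and S1pr4 (-0.54 to 0.13). The sign also turned, in naive interactions for Cxcr4 (-0.89 to 0.16), in naive DKO against PU.1 cKO for Ccr6 (-0.16 to 0.070) and in naive DKO against SpiB KO for S1pr2 (-1.12 to 0.68) and S1pr3 (-0.21 to 0.19). Further ranges were found, in naive SpiB KO against control for Cxcr5 (-0.32 to 0.052) and Cxcr4 (-0.94 to 0.11), in naive PU.1 cKO against control for Ccr7 (-0.15 to 0.27) and in naive DKO against control for S1pr2 (-1.45 to 0.33). Signs changed besides, in LPS + IL-4 interactions for S1pr1 (-0.13 to 0.71), S1pr4 (-0.081 to 0.31) and Ccr7 (-0.031 to 0.32), in LPS + IL-4 PU.1 cKO against control for S1pr1 (-0.61 to 0.21) and in LPS + IL-4 DKO against SpiB KO for Ccr7 (-0.16 to 0.19) and Gpr183 (-0.064 to 0.13). The remaining ones were, in LPS + IL-4 SpiB KO against control for S1pr3 (-0.048 to 0.38), Cxcr5 (-0.022 to 0.20) and Ccr7 (-0.11 to 0.23). A change of sign by less than 1 SE, in a value called in neither fit, was not counted as turned.

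Correlations of same-numbered libraries were highest in LPS + IL-4 (0.386 to 0.514). They were lower but all positive in naive cells (0.092 to 0.250) and ran from -0.070 to 0.266 in CD40L + IL-4. Pairing by replicate number was thus less clear at these other stages. The replicate block changed no receptor's call against control or in the interaction in LPS + IL-4, where it moved the gene counts as given above, and it added 12 receptor calls elsewhere and removed none. Among them were interactions of Ccr7 (-0.65) and S1pr3 (1.02) in naive cells and of S1pr2 (1.78) and S1pr4 (-1.08) after CD40L + IL-4. Without TMM the levels were 0.895 to 1.10 times those given, and 29 of 108 moved by more than 1 SD. As RPKM the levels have another unit and are given as the order of the receptors. S1pr2 is limited by depth, since 25 and 34 reads stood behind its level in naive PU.1 cKO libraries and 23 and 73 behind that in LPS + IL-4 control libraries. With the lowest and highest count over the alternatives in parentheses, the genes called in naive cells numbered PU.1 cKO 1342 (603 to 2091), SpiB KO 1203 (475 to 2078), DKO 2652 (1756 to 3371), DKO against PU.1 cKO 1614 (901 to 1846), DKO against SpiB KO 381 (121 to 615) and the interaction 117 (35 to 996). In CD40L + IL-4 they numbered PU.1 cKO 1714 (831 to 2209), SpiB KO 17 (6 to 193), DKO 2331 (1508 to 2742), DKO against PU.1 cKO 517 (198 to 1006), DKO against SpiB KO 1946 (1073 to 2472) and the interaction 149 (46 to 647). In LPS + IL-4 they numbered PU.1 cKO 1310 (830 to 1517), SpiB KO 397 (187 to 816), DKO against PU.1 cKO 1569 (1009 to 1734), DKO against SpiB KO 1588 (1007 to 1768) and the interaction 172 (54 to 548). For the shift of the DKO effect they numbered CD40L + IL-4 from naive 1969 (1236 to 2316), LPS + IL-4 from naive 3239 (2104 to 3763) and LPS + IL-4 from CD40L + IL-4 3080 (1589 to 3597).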
